A study of Homo sapiens with 6 samples.

Results

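The PI3K-AKT-mTOR pathway components described here are 42 genes, chosen by symbol, that encode the pathway's own adaptors, kinase subunits, phosphatases, GTPases and complex members, and not the genes it controls. All 42 were among the 23228 symbols of the count tables, and 41 passed the filter on low counts, out of 12796 genes tested in all. The member that did not pass was DEPTOR, an mTOR-binding inhibitor. Its counts were 7, 5 and 3 in control cells and 9, 7 and 6 in PELP1-KD cells. The cells sequenced were MDA-MB-231, a human cell line established from a triple negative breast cancer (TNBC), grown in RPMI medium with serum. The control group was 3 replicates of cells carrying a non-targeted shRNA, and the PELP1-KD group was 3 replicates of cells carrying an shRNA against PELP1, a coregulator of nuclear receptors. Both cell populations were made with lentiviral particles and kept under puromycin selection, and both carry a stably expressed hairpin. Each group has 1 shRNA, so effects of this hairpin on other transcripts and effects of PELP1 loss cannot be told apart. The labels do not say whether replicates came from separate cultures, so p-values measure the spread between these samples, which may be technical.

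PI3K is recruited by activated growth factor receptors through adaptors such as the IRS proteins and makes the membrane lipid that brings PDK1 and AKT together. AKT then phosphorylates FOXO factors, GSK3 and TSC2, and loss of TSC activity lets the GTPase RHEB switch on mTORC1 at the lysosome, where the Rag GTPases have brought it in response to amino acids. mTORC1 raises protein synthesis through the S6 kinases and the eIF4E-binding proteins, and the pathway is among those most often altered by mutation in breast cancer.

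The counts on genes summed to 17304864 in the shallowest and 23132102 in the deepest replicate, so that 3 reads correspond to 0.13 to 0.173 counts scaled to the library size (CPM). PELP1 itself was measured at 57.2, 56.1 and 60.2 CPM in the control replicates and at 28.6, 29.9 and 30.3 CPM in the PELP1-KD replicates. PELP1 mRNA was thus 48.8% lower, with a log2 fold change (log2FC) of -0.97 (SE 0.055, edgeR adjusted p = 1.48e-11). Adjusted p-values here are from the quasi-likelihood test of edgeR with Benjamini-Hochberg adjustment over all tested genes, after scaling the libraries by TMM. Of the markers of a mesenchymal breast cancer line, VIM, CD44 and AXL were abundant in both groups, with means of 2221 and 1922 CPM for VIM, 1209 and 828 CPM for CD44 and 1438 and 1311 CPM for AXL in control and PELP1-KD cells, while SPARC was at 5.02 and 14.8 CPM. ESR1 and CDH1, which mark luminal and epithelial cells, had at most 1 and 4 reads in any replicate, and the leukocyte marker PTPRC had 0 in all 6. GATA3 and EPCAM, of the same luminal and epithelial lists, were at 6.98 and 9.46 CPM in control cells and 8.08 and 9.57 CPM in PELP1-KD cells, FOXA1 was at 0.974 and 0.191 CPM, and the endothelial markers PECAM1 and CDH5 had at most 7 and 6 reads. The part of these marker differences in the results was not tested.

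Most components of the pathway changed little after PELP1 knockdown, and the largest called changes were falls of DDIT4, an inhibitor of mTORC1, and PIK3R1, a regulatory subunit of PI3K. Of the 41 tested members, 8 (19.5%) were lower in PELP1-KD cells at an adjusted p below 0.05, a call made for 24.2% of all tested genes. The 6 members (14.6%) that were higher stand beside 22.7% of all tested genes. The split depended on the scaling of the libraries: with library totals in place of TMM factors, 5 members were lower and 11 were higher. The calls over all tested genes moved the same way, from 3103 to 2418 lower and from 2904 to 3817 higher. Without PELP1-KD replicate 1 or without PELP1-KD replicate 3, the number of members called lower was 5 in each case. Over all tested genes it was 2747 and 2723, respectively.

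The typical size of these changes was small compared with the rest of the transcriptome, but the share of larger falls was not. A log2FC below -0.5 was called for 2 of the 41 members, DDIT4 and PIK3R1, close to the 4.81% of all tested genes. A log2FC above 0.5 was called for 0 members, against 6.42% of all tested genes. The highest log2FC of any member in edgeR was 0.37, so this count was 0 at an unadjusted p below 0.05 too, and it was 0 in DESeq2 and voom. At the fold change of 2 used by the study, 1 of the 41 members, DDIT4, was called lower, against 1.34% of all tested genes. At this fold change 0 members were called higher, against 1.9% of all tested genes. The median absolute log2FC was 0.10 over the members and 0.17 over all tested genes. The members were also the more abundant, with a median of 53.8 CPM against 34.1 CPM. Genes of matched abundance were not compared, so the part of abundance in this difference was not tested. The control and PELP1-KD replicates did not overlap for 14 of the 41 members (34.1%), compared with 55% of all tested genes. The signed log2FC had a median of -0.04 over the members and of 0.0014 over all tested genes, and was negative for 24 members and positive for 17. Under library totals these medians were 0.01 and 0.05. The summed level of all members ranged from 2835 to 2868 CPM in control cells and from 2807 to 2855 CPM in PELP1-KD cells, so these ranges overlapped.

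**Figure D1:**
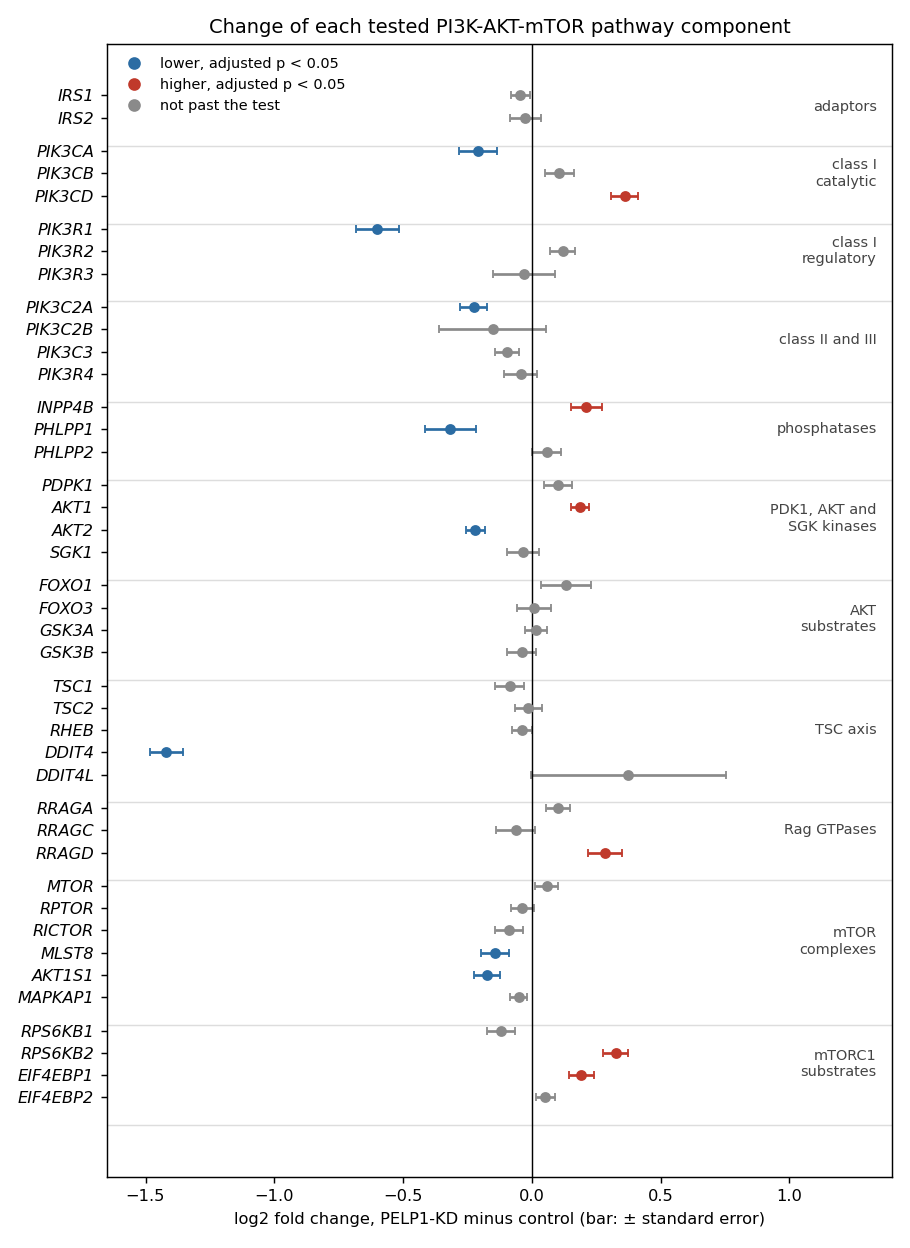
The plot shows the log2FC (PELP1-KD minus control, x axis) of each of the 41 tested members with its standard error as a bar, grouped by role, with colours for the 8 members called lower, the 6 called higher and the 27 not called. DDIT4 lies at -1.42 and PIK3R1 at -0.60, and every other called member lies between -0.32 and 0.36.

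**Figure D2:**
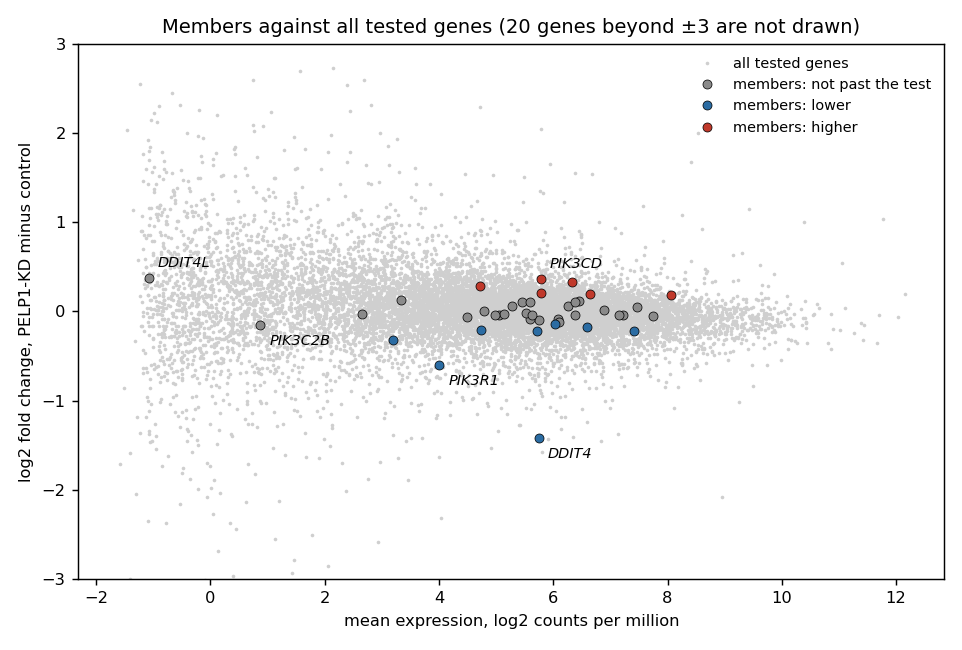
The plot shows log2FC (y axis) against mean expression in log2 CPM (x axis) for all 12796 tested genes in light grey, with the members on top in larger points. Most members sit within the dense band around 0 at middle to high expression, DDIT4 lies well below the band, and 20 genes beyond 3 log2 units are not drawn.

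DDIT4, known as REDD1, is induced by hypoxia, energy stress and glucocorticoids and restrains mTORC1 through the TSC complex. It was measured at 74.9, 79.3 and 80.7 CPM in the control replicates and at 26.2, 32.2 and 29.4 CPM in the PELP1-KD replicates. Every PELP1-KD replicate was far below every control replicate. The means were 78.3 ± 3.03 CPM and 29.2 ± 3.00 CPM (SD, n = 3 each), a fall of 62.6% with a log2FC of -1.42 (SE 0.062, edgeR adjusted p = 2.35e-13). Per length, in RPKM (CPM per kb of the longest coding transcript), DDIT4 went from 44.8 to 16.7, that is, from rank 6 to rank 13 among the 42 members. Its log2FC stayed between -1.49 and -1.35 under all alternatives. The gene lies at chr10:72273920-72276036 on the plus strand (GRCh38). Its relative DDIT4L was near the floor, with 0.408 ± 0.123 CPM in control cells and 0.538 ± 0.090 CPM in PELP1-KD cells (SD, n = 3 each), and was not called (log2FC 0.37, 95% interval -0.42 to 1.16).

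The promoters of DDIT4 and PIK3R1 are shown because these were the only members called with a log2FC beyond 0.5 in either direction. Each is the 250 bases before a RefSeq transcription start on the GRCh38.p14 assembly, for DDIT4 chr10:72273674-72273923 and for the most upstream of 4 starts of PIK3R1 chr5:68215506-68215755, both on the plus strand. Capitals mark ACGTG, a form of the core of the hypoxia response element (CACGT on the other strand). Other forms of this core were not searched for or marked. Capitals also mark the CCAAT box, which reads ATTGG on the other strand. The words share no base here.
DDIT4: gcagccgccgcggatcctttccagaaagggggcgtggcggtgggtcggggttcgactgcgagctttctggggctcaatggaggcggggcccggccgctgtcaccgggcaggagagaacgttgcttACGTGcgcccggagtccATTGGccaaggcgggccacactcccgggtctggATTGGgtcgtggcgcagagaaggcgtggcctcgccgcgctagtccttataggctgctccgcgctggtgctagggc
PIK3R1: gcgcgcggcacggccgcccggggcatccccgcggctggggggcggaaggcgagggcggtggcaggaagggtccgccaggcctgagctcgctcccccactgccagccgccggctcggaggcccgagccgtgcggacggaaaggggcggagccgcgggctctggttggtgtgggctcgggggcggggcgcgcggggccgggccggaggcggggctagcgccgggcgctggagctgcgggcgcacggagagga

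The DDIT4 window held ACGTG from 125 to 121 bases before the start and ATTGG from 108 to 104 and from 75 to 71 bases before it, and this window of PIK3R1 held neither word, while of its other starts 1 held ACGTG and another held CCAAT, on either strand. Over 35116 promoter windows of RefSeq, 18.5% held ACGTG and 32.0% held CCAAT on either strand. Of the 60 windows of members, 20% held ACGTG and 38.3% held CCAAT. Shares per gene are given next, and they also depend on the number of starts, since each start adds a window. Of the 36 members matched in that table, 10 (27.8%) held ACGTG and 19 (52.8%) held CCAAT in at least 1 of their promoters, PIK3R1 among both, compared with 21.7% and 37.0% of the 27305 genes with a promoter there. These matches describe letters and are not measured binding sites.

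Among the other genes of the TSC axis, neither subunit of the TSC complex was called. TSC1 was at 49.7 ± 0.730 CPM in control cells and 46.9 ± 3.44 CPM in PELP1-KD cells (log2FC -0.09, 95% interval -0.20 to 0.03), and it was called lower in the alternative without PELP1-KD replicate 2 (edgeR adjusted p = 0.0428). TSC2, the subunit that acts on RHEB, was at 46.3 ± 0.164 CPM and 45.8 ± 1.15 CPM (SD, n = 3 each, log2FC -0.01). RHEB, the GTPase that activates mTORC1, was at 145 ± 2.48 CPM and 141 ± 5.52 CPM (log2FC -0.04, 95% interval -0.12 to 0.04).

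In the class I PI3K, the changes differed between subunits. PIK3R1 encodes the regulatory subunit alpha, which stabilises and inhibits the catalytic subunits and binds phosphorylated receptors and adaptors. It was measured at 19.3, 20.2 and 18.5 CPM in the control replicates and at 11.5, 13.0 and 13.7 CPM in the PELP1-KD replicates. The groups did not overlap. The mean fell from 19.4 ± 0.885 to 12.7 ± 1.14 CPM (SD, n = 3 each), 34.0% lower, with a log2FC of -0.60 (SE 0.083, edgeR adjusted p = 5.75e-06). The gene lies at chr5:68215720-68301821 on the plus strand, and counts per gene do not separate its transcripts.

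The other regulatory subunits did not pass the test. PIK3R2, the regulatory subunit beta, was at 84.0 ± 5.66 CPM in control cells and 91.3 ± 2.71 CPM in PELP1-KD cells (log2FC 0.12, edgeR adjusted p = 0.0516), and it was called higher under 6 of the 13 alternatives. PIK3R3, the subunit gamma, was at 6.39 ± 0.317 CPM and 6.25 ± 0.718 CPM (log2FC -0.03). Per length, PIK3R2 was by far the most abundant of these subunits, at 20.8 RPKM in control cells compared with 2.76 RPKM for PIK3R1 and 1.14 RPKM for PIK3R3. PIK3R1 thus made up 11.2% ± 0.900 of the regulatory subunit mRNA per length in control cells and 7.11% ± 0.551 in PELP1-KD cells (SD, n = 3 each), while the summed level was 24.7 ± 1.29 and 25.6 ± 0.640 RPKM, with overlapping groups. This division among all 3 subunits was chosen after the data were seen.

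Of the catalytic subunits, PIK3CD rose, PIK3CA fell and PIK3CB was not called. PIK3CD encodes the catalytic subunit delta, which is best known in leukocytes. It was measured at 46.7, 48.6 and 49.7 CPM in the control replicates and at 59.3, 62.6 and 64.2 CPM in the PELP1-KD replicates, so that the groups did not overlap. Its mean rose by 28.3%, from 48.4 ± 1.53 to 62.0 ± 2.54 CPM (SD, n = 3 each), with a log2FC of 0.36 (SE 0.051, edgeR adjusted p = 8.16e-06). The leukocyte marker CD3E had at most 2 reads in any replicate. PIK3CD lies at chr1:9651732-9729114 on the plus strand, and its exons overlap those of CLSTN1 on the other strand, which was lower in PELP1-KD cells (log2FC -0.11).

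PIK3CA, the catalytic subunit alpha and the one most often mutated in breast cancer, was 13.4% lower (log2FC -0.21, SE 0.074, edgeR adjusted p = 0.0268). Its replicates overlapped, at 30.7, 29 and 25.6 CPM in control cells and 23.6, 23.5 and 26.6 CPM in PELP1-KD cells, and the call was lost under 6 of the 13 alternatives. PIK3CB, the catalytic subunit beta, was at 42.3 ± 1.97 CPM in control cells and 45.5 ± 1.57 CPM in PELP1-KD cells (SD, n = 3 each, log2FC 0.11, edgeR adjusted p = 0.122). The summed catalytic mRNA per length was 19.1 ± 0.309 RPKM in control cells and 21.7 ± 0.529 RPKM in PELP1-KD cells, with no overlap between groups. PIK3CD made up 46.2% ± 2.20 of it in control cells and 52.1% ± 1.38 in PELP1-KD cells, and PIK3CA 16.4% ± 1.24 and 12.4% ± 0.598 (SD, n = 3 each). These sums, too, were chosen after the data were seen.

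The adaptors that link insulin and IGF receptors to PI3K were not called. IRS1 was at 151 ± 3.22 CPM in control cells and 146 ± 3.74 CPM in PELP1-KD cells (log2FC -0.04, 95% interval -0.12 to 0.03), and IRS2 at 35.6 ± 2.14 and 35.0 ± 1.55 CPM (SD, n = 3 each, log2FC -0.03, 95% interval -0.15 to 0.10).

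The class II and class III enzymes make the lipids of endosomes and autophagosomes. Of the 4 members, 1 (25%) was called lower, close to the 24.2% of all tested genes, and the other log2FC values were negative without a call. Under library totals PIK3R4 turned slightly positive (log2FC 0.0056). PIK3C2A, a class II kinase of clathrin-mediated uptake, was measured at 58.9, 57.6 and 54.2 CPM in the control replicates and at 49.3, 46.5 and 50.2 CPM in the PELP1-KD replicates. The groups did not overlap. Its mean fell by 14.5%, from 56.9 ± 2.44 to 48.7 ± 1.92 CPM (SD, n = 3 each), with a log2FC of -0.23 (SE 0.053, edgeR adjusted p = 0.00146). PIK3C2A lies at chr11:17077730-17207983 on the minus strand, and its exons overlap on the same strand with those of RPS13, a ribosomal protein gene with a log2FC of -0.18. PIK3C3, the class III kinase, was at 55.8 ± 0.50 and 52.2 ± 0.987 CPM, with no overlap between groups but no call (log2FC -0.10, edgeR adjusted p = 0.108). Its regulatory subunit PIK3R4 was at 33.5 ± 1.83 and 32.4 ± 1.71 CPM (log2FC -0.04), and PIK3C2B at 1.93 ± 0.208 and 1.73 ± 0.339 CPM (SD, n = 3 each, log2FC -0.15).

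**Figure D3:**
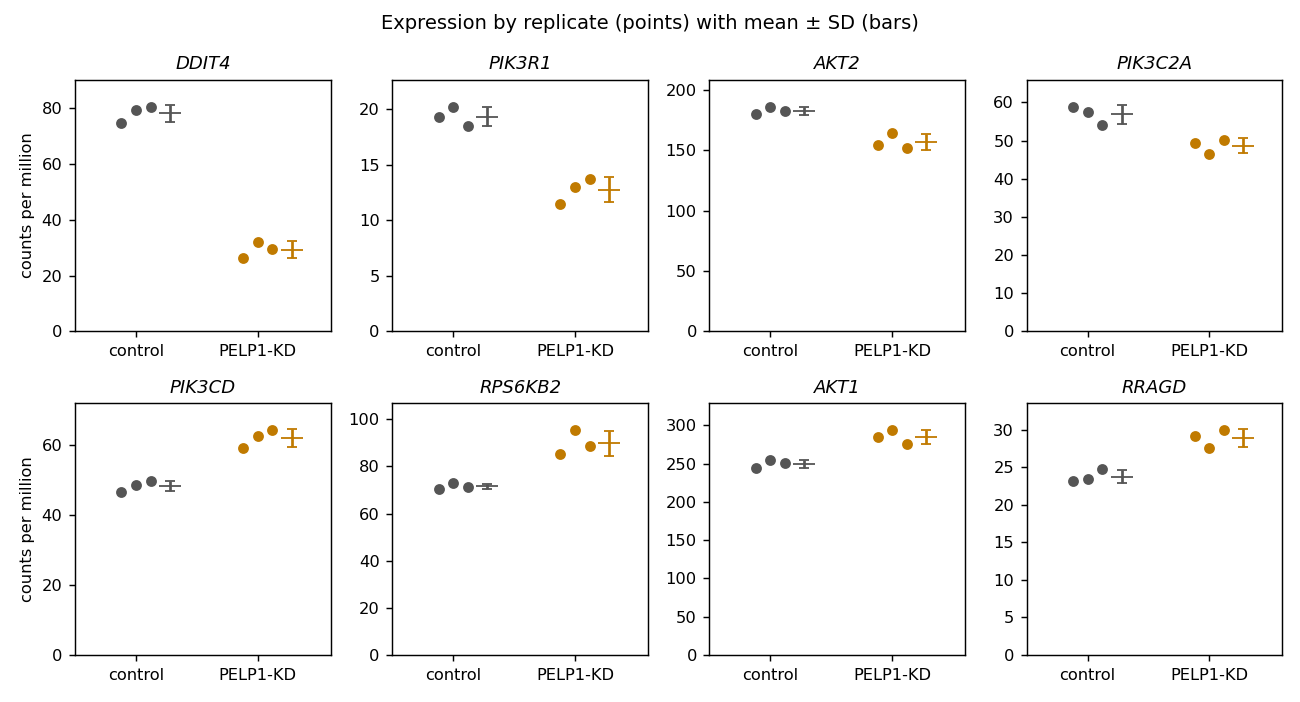
The panels show CPM (y axis, from 0) in each of the 3 control and 3 PELP1-KD replicates as points, with the mean and SD as bars, for the 4 most significant members in each direction. In all 8 panels the points of the groups do not overlap, and DDIT4 shows the widest separation.

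The phosphatases that oppose the pathway had called members in both directions. PHLPP1, which dephosphorylates AKT, was at 10.3, 9.59 and 10.5 CPM in control cells and at 7.95, 8.72 and 7.73 CPM in PELP1-KD cells, 19.7% lower (log2FC -0.32, SE 0.098, edgeR adjusted p = 0.0120). INPP4B, a lipid phosphatase and proposed tumor suppressor in breast, was 15.8% higher, at 51.1 ± 2.69 CPM in control cells and 59.1 ± 4.83 CPM in PELP1-KD cells (SD, n = 3 each, log2FC 0.21, edgeR adjusted p = 0.0065). Without PELP1-KD replicate 3, the edgeR adjusted p was 0.0571 for PHLPP1 and 0.0742 for INPP4B. PHLPP2, the relative of PHLPP1, was at 38.2 ± 1.42 and 39.7 ± 1.06 CPM and was not called (log2FC 0.06).

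The AKT genes moved in opposite directions. AKT1 was measured at 245, 254 and 251 CPM in the control replicates and at 284, 294 and 276 CPM in the PELP1-KD replicates. AKT2, the form most closely tied to insulin responses, was measured at 180, 186 and 182 CPM in the control replicates and at 155, 164 and 152 CPM in the PELP1-KD replicates. For neither gene did the groups overlap. AKT1 rose by 13.8%, from 250 ± 4.94 to 285 ± 9.0 CPM (SD, n = 3 each, log2FC 0.19, SE 0.033, edgeR adjusted p = 1.11e-04). AKT2 fell by 14.1%, from 183 ± 3.13 to 157 ± 6.58 CPM (SD, n = 3 each, log2FC -0.22, SE 0.038, edgeR adjusted p = 7.53e-05). AKT1 lies at chr14:104769349-104795751 and AKT2 at chr19:40230317-40285536, both on the minus strand.

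The kinase that phosphorylates AKT and the kinase related to it were not called. PDPK1, which encodes PDK1, was at 46.3 ± 2.18 CPM in control cells and 49.6 ± 1.58 CPM in PELP1-KD cells (log2FC 0.10, 95% interval -0.01 to 0.21). SGK1, a glucocorticoid-induced kinase that shares substrates with AKT, was at 32.1 ± 0.655 and 31.3 ± 1.85 CPM (SD, n = 3 each, log2FC -0.04, 95% interval -0.16 to 0.09).

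Of the 4 AKT substrates, 0 passed the test in edgeR, against 46.9% of all tested genes called in either direction. Too few genes are in this group to compare the shares. Of these 4, 0 had an unadjusted p below 0.05 in edgeR, and none passed in DESeq2 or voom. FOXO1 and FOXO3, transcription factors that AKT keeps out of the nucleus, had log2FC values of 0.13 (95% interval -0.07 to 0.34) and 0.01 (95% interval -0.13 to 0.15). GSK3A and GSK3B, the glycogen synthase kinases, had log2FC values of 0.02 (95% interval -0.07 to 0.10) and -0.04 (95% interval -0.16 to 0.08).

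Among the Rag GTPases, which bring mTORC1 to the lysosome, RRAGD rose. It was measured at 23.1, 23.4 and 24.7 CPM in the control replicates and at 29.2, 27.6 and 29.9 CPM in the PELP1-KD replicates, with no overlap. The mean rose by 21.7%, from 23.8 ± 0.855 to 28.9 ± 1.20 CPM (SD, n = 3 each), with a log2FC of 0.28 (SE 0.065, edgeR adjusted p = 0.00116). RRAGD lies at chr6:89364636-89412270 on the minus strand. RRAGC, which occupies the same place in the Rag heterodimer, was at 22.9 ± 1.68 and 21.9 ± 1.61 CPM (log2FC -0.06), and RRAGA, the partner of both, at 80.2 ± 4.16 and 86.1 ± 0.214 CPM with no overlap but no call (SD, n = 3 each, log2FC 0.10, edgeR adjusted p = 0.0769).

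In the mTOR complexes, the kinase and the subunits that define each complex were not called. MTOR was at 74.9 ± 0.519 CPM in control cells and 78.0 ± 3.12 CPM in PELP1-KD cells (log2FC 0.06, 95% interval -0.04 to 0.15). RPTOR, the substrate-binding subunit of mTORC1, had a log2FC of -0.04 (95% interval -0.13 to 0.05). RICTOR and MAPKAP1, subunits of mTORC2, had log2FC values of -0.09 (95% interval -0.20 to 0.02) and -0.05 (95% interval -0.12 to 0.02). Under library totals the log2FC of RPTOR was 0.01.

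The smaller subunits MLST8 and AKT1S1 were lower with overlapping groups. AKT1S1, which encodes PRAS40, an inhibitor of mTORC1 that AKT phosphorylates, was at 96.9, 101 and 108 CPM in control cells and at 86.9, 97.1 and 87.4 CPM in PELP1-KD cells (log2FC -0.17, SE 0.051, edgeR adjusted p = 0.00799). MLST8, shared by both complexes, was at 64.1, 70.1 and 70.5 CPM in control cells and at 59.3, 66.5 and 59.6 CPM in PELP1-KD cells (log2FC -0.14, SE 0.055, edgeR adjusted p = 0.0351). PELP1-KD replicate 2 lay within the control range for both genes. The call was lost under 4 of the 13 alternatives for AKT1S1 and under 6 for MLST8, library totals among them in each case. Exons of AKT1S1 overlap those of TBC1D17 on the other strand (log2FC 0.27).

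Of the mTORC1 substrates, RPS6KB2 and EIF4EBP1 rose. RPS6KB2, an S6 kinase, was measured at 70.6, 72.8 and 71.5 CPM in the control replicates and at 85.1, 95.3 and 88.8 CPM in the PELP1-KD replicates, with no overlap. Its mean rose by 25.3%, from 71.6 ± 1.10 to 89.7 ± 5.18 CPM (SD, n = 3 each), with a log2FC of 0.32 (SE 0.048, edgeR adjusted p = 1.23e-05). The gene lies at chr11:67428460-67435408 on the plus strand. EIF4EBP1, a repressor of cap-dependent translation, was 14.2% higher, at 93.5 ± 5.79 CPM in control cells and 107 ± 4.99 CPM in PELP1-KD cells (SD, n = 3 each, log2FC 0.19, edgeR adjusted p = 0.00284). The related genes RPS6KB1 and EIF4EBP2 were not called, with log2FC values of -0.12 (edgeR adjusted p = 0.0716) and 0.05 (edgeR adjusted p = 0.264).

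The balance between related genes was then compared within each replicate, which does not depend on the scaling of the libraries. For 12 pairs, the level of each gene per kb of its longest coding transcript was expressed as a share of the pair. The groups did not overlap for 7 pairs and overlapped for 5. Among single genes, the groups did not overlap for 55% of all tested genes. Pairs outside the pathway were not compared, so the count is not a trait of these pairs. With 3 replicates against 3, a two-sided exact permutation test cannot go below p = 0.1, which all 7 pairs reached (0.171 after adjustment over the 12 pairs), so none could pass a threshold of 0.05.

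AKT1 made up 64.9% ± 0.138 of the AKT1 and AKT2 level in control cells and 71.0% ± 0.310 in PELP1-KD cells (SD, n = 3 each), a shift of 6.12 percentage points. The control replicates lay between 64.8% and 65.1% and the PELP1-KD replicates between 70.7% and 71.4%. PIK3R1 made up 70.8% ± 0.682 and 62.0% ± 3.60 of its level with PIK3R3, and PIK3CA 30.4% ± 1.29 and 26.0% ± 1.55 of its level with PIK3CB. In both pairs the share of the alpha subunit was lower in every PELP1-KD replicate.

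RPS6KB1 made up 24.1% ± 1.62 of the S6 kinase pair in control cells and 18.9% ± 1.33 in PELP1-KD cells, RRAGC 63.3% ± 0.868 and 57.5% ± 0.948 of its pair with RRAGD, and PHLPP1 26.1% ± 1.01 and 21.3% ± 1.20 of its pair with PHLPP2 (SD, n = 3 each). DDIT4 remained nearly all of its pair, at 99.7% ± 0.107 and 98.8% ± 0.190. The shares of PIK3C2A, IRS1, GSK3A, FOXO1 and EIF4EBP1 in their pairs overlapped between groups. The shares themselves depend on the transcript taken for length. With all annotated exons as the length, RPS6KB1 made up 43.1% in control cells and 35.8% in PELP1-KD cells, and RRAGC 48.6% and 42.6%.

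**Figure D4:**
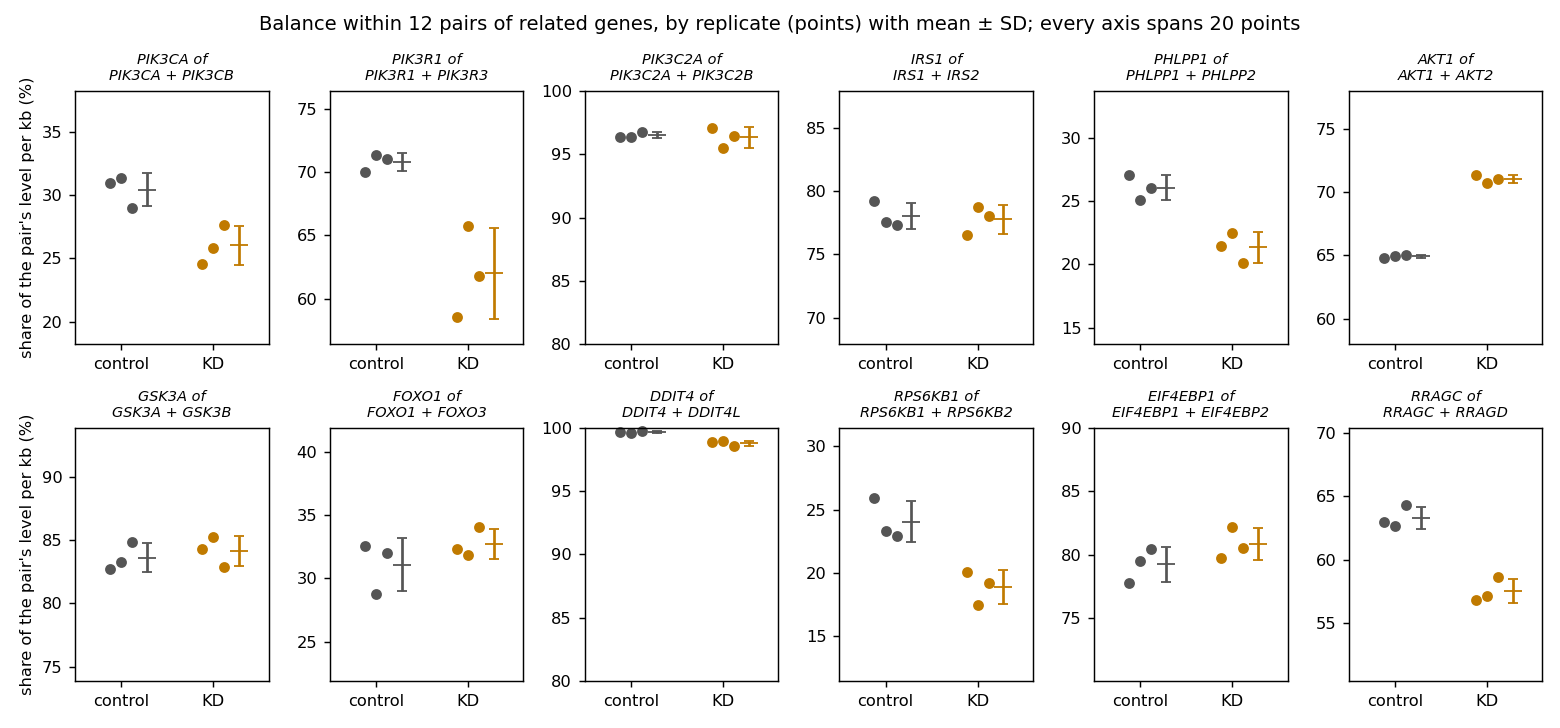
Each panel shows the share (%, y axis, 20 percentage points in every panel) of the first gene in the summed level per kb of a pair, in each control and PELP1-KD replicate (points) with mean and SD (bars). The groups are apart in 7 panels, most widely relative to the spread for AKT1, and overlap in the panels of PIK3C2A, IRS1, GSK3A, FOXO1 and EIF4EBP1.

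Per length, the members covered a wide range of levels. In control cells EIF4EBP1 was highest, at 91.7 ± 5.67 RPKM, followed by RHEB at 69.7 ± 1.20, MAPKAP1 at 64.6 ± 1.82, AKT1 at 63.8 ± 1.26 and RRAGA at 50.5 ± 2.62 RPKM (SD, n = 3 each). MAPKAP1 and AKT1 did not differ beyond their spread. The lowest were DEPTOR at 0.104 ± 0.0503, DDIT4L at 0.157 ± 0.0474 and PIK3C2B at 0.251 ± 0.0270 RPKM, of which DEPTOR and DDIT4L did not differ beyond their spread. In PELP1-KD cells AKT1 at 72.7 ± 2.30 RPKM stood next below EIF4EBP1 at 105 ± 4.89 RPKM and above RHEB at 67.8 ± 2.66 RPKM (SD, n = 3 each). AKT1 and RHEB differed by less than the sum of their SDs. DDIT4 fell by 7 places, and INPP4B and PIK3C2A, which moved by 4 places each, were the members with the next largest shifts.

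Other genes of the pathway were examined in 5 lists, whose counts are to be read against the 24.2% of all tested genes called lower and the 22.7% called higher. In the amino acid sensing branch, 25 of 27 listed genes were tested, 3 (12%) were lower and 4 (16.0%) higher, both below the shares over all tested genes, and 5 were lower without control replicate 1. The folliculin complex, which acts on RRAGC and RRAGD, had members in both directions: FNIP1 was lower (log2FC -0.36, edgeR adjusted p = 1.40e-05), while FLCN and FNIP2 were higher (log2FC 0.26 each). Parts of the lysosomal anchor of the Rag GTPases also differed in direction. LAMTOR3 and LAMTOR1 were lower (log2FC -0.24 and -0.16), LAMTOR4 was higher (log2FC 0.13, edgeR adjusted p = 0.0370), and LAMTOR2 and LAMTOR5 were not called. SLC38A9, a lysosomal arginine sensor, was higher (log2FC 0.22). The median log2FC of the list was 0.02, and 18 of its genes were not called, among them SESN1, SESN2 and all tested members of the GATOR complexes.

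Of 14 other PI3K subunits and phosphoinositide phosphatases, 10 were tested, 2 (20%) were lower and 3 (30%) higher, against 24.2% and 22.7% of all tested genes. Without control replicate 1, PELP1-KD replicate 2 or PELP1-KD replicate 3, 1 was lower. PIK3IP1, an inhibitor of PI3K, was higher at a low level, with 0.949 ± 0.249 CPM in control cells and 2.06 ± 0.144 CPM in PELP1-KD cells (SD, n = 3 each, log2FC 1.08, edgeR adjusted p = 6.69e-04). PIK3AP1, an adaptor that activates PI3K, was also higher (log2FC 0.50), as was INPP5K (log2FC 0.16). BECN1 and ATG14, partners of PIK3C3 in autophagy, were lower (log2FC -0.27 and -0.17).

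Of 23 other AKT and mTOR regulators and substrates, 20 were tested, 6 (30.0%) were lower and 7 (35.0%) higher, against 24.2% and 22.7% of all tested genes. PRR5, a subunit of mTORC2, rose at a low level, from 1.18 ± 0.0989 to 2.91 ± 0.213 CPM (SD, n = 3 each, log2FC 1.29, edgeR adjusted p = 1.65e-05). It had 18, 28 and 22 reads in the control replicates. Its more abundant relative PRR5L was lower, at 11.6 ± 0.208 CPM in control cells and 9.63 ± 0.832 CPM in PELP1-KD cells (SD, n = 3 each, log2FC -0.26, edgeR adjusted p = 0.0281). TBC1D7, a further subunit of the TSC complex, rose from 16.6 ± 0.428 to 27.0 ± 0.886 CPM (SD, n = 3 each, log2FC 0.70, edgeR adjusted p = 4.75e-08). TFEB, a regulator of lysosomal genes that mTORC1 keeps in the cytoplasm, was also higher (log2FC 0.76).

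In the same list PDCD4, an inhibitor of translation that S6 kinases mark for degradation, fell from 28.4 ± 1.61 to 17.4 ± 0.592 CPM (SD, n = 3 each, log2FC -0.71, edgeR adjusted p = 5.63e-08). EIF4B, a translation factor phosphorylated by S6 kinases, and TBC1D4, an AKT substrate in glucose uptake, were lower (log2FC -0.30 and -0.27). RPS6, the substrate that names the S6 kinases, was not called at 1018 ± 32.8 and 1012 ± 17.7 CPM (SD, n = 3 each).

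Of 15 genes known as FOXO targets, 1 (KLF6, log2FC -0.34) was lower and 6 (40.0%) were higher, against 24.2% and 22.7% of all tested genes, with PDK4, GABARAPL1 and INSR leading at log2FC values of 0.56, 0.43 and 0.31. The list's median log2FC was 0.09. Without control replicate 3 or PELP1-KD replicate 1, 2 of these targets were lower. The number called higher was 4 to 7 when each replicate was left out, with 4 without control replicate 2 and 7 without control replicate 1. Of 10 glucocorticoid-induced genes, 9 were tested, 2 (22.2%) were lower and 4 (44.4%) higher, against 24.2% and 22.7% of all tested genes. Without control replicate 3 or PELP1-KD replicate 1, 2 of them were higher. PER1, TSC22D3 and DUSP1 were higher (log2FC 0.64, 0.45 and 0.14), and BIRC3 and ERRFI1 were lower (log2FC -0.61 and -0.11), while the members DDIT4 and SGK1 of the same class were lower and not called, respectively. The median log2FC over the list was 0.11. RNA-seq measures neither protein nor phosphorylation, so the activity of the pathway was not measured here.

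**Figure D5:**
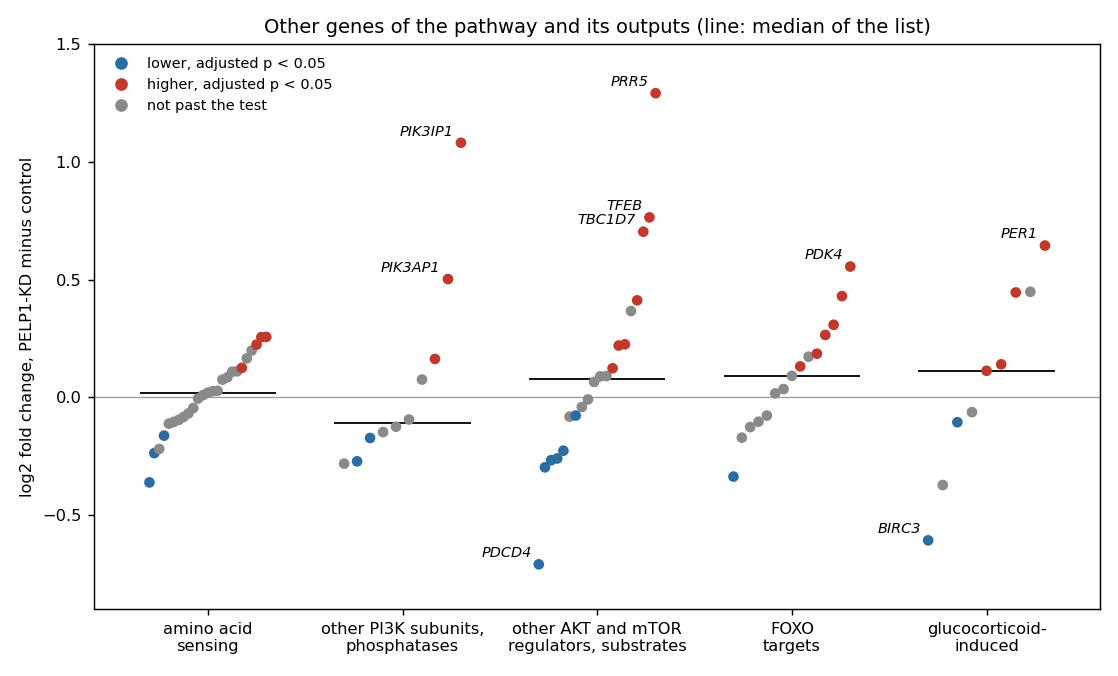
The plot shows the log2FC (PELP1-KD minus control, y axis) of each tested gene of the 5 lists, sorted within each list, with colours for genes called lower, called higher or not called and a line at the median of the list. Names are given for called genes beyond 0.5 on the log2 scale, and PRR5 at 1.29 and PDCD4 at -0.71 are the extremes.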

How the data were processed

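RNA-seq of MDA-MB-231 cells was done on 3 control and 3 PELP1-KD replicates with stranded poly(A) libraries and single reads of 50 bases. The authors counted reads per gene symbol and deposited raw counts, whole numbers without normalization, for each replicate. Their processing notes name bcl2fastq, TopHat2, SAMtools, HTSeq and the build hg19. Versions, the annotation and the use of strand in counting are not given in the sources used here. Reads that the tables place on no gene were left out of library sizes: 32.5% to 32.9% of reads were not uniquely aligned, 7.64% to 8.19% fell on no feature and 0.657% to 0.688% were ambiguous, so genes with near-identical copies or pseudogenes, such as PDPK1, RHEB, EIF4EBP1, EIF4EBP2 and PIK3CD, are uncertain. Counts on overlapping genes could not be separated by strand.

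Genes passing filterByExpr of edgeR 4.0.16 (minimum count 10) in R 4.3.3 were scaled by TMM (factors 0.978 to 0.987 in control, 1.02 in each PELP1-KD replicate) and tested by the quasi-likelihood test with Benjamini-Hochberg adjustment over all tested genes, in place of the DESeq2 test the study used. A call is an adjusted p below 0.05. The SE of a log2FC is its size over the root of the F statistic. CPM use TMM-scaled library sizes, and RPKM divide CPM by the length in kb of the longest coding transcript in GENCODE release 29 (GRCh38), found for 21435 of 23228 symbols (92.3%). Coordinates come from that annotation, not from the count tables. Floors of 3 counts cover counting error only, since PCR copies carry no molecular identifiers. Pair shares were compared by exact permutation tests in scipy 1.17.1.

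The members, their roles and the 5 lists (amino acid sensing upstream of mTORC1, other PI3K subunits and phosphatases, other AKT and mTOR regulators, FOXO targets, glucocorticoid-induced genes) were chosen with earlier results of these data known. Per-replicate values are given for members called with a log2FC beyond 0.5 and for the 4 members with the lowest p in each direction. Those of PHLPP1, PIK3CA, AKT1S1 and MLST8 were added after their values were seen. Of each list, up to 3 called genes with the largest log2FC in each direction are named, and other names were chosen after their values were seen. LAMTOR4, LAMTOR5 and CASTOR1 were matched by older symbols, and CASTOR2 was not matched. The scripts were tested on simulated counts. The alternatives were RLE size factors, library totals, DESeq2 1.42.0, voom of limma 3.58.1, no filter, a minimum of 10 counts in all replicates, a block on the replicate number, omission of each replicate, a test against a log2FC of 1 and other lengths. Union exon lengths and sums over 3 subunits were added after the data were seen. Promoter sequences are from RefSeq. Some items are not reported here. The study's proteomics and blots were not analysed here.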

Additional observations from a re-analysis of the deposited data

How the results depend on the processing

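The 13 alternatives gave a value for each tested member except DDIT4L, which had 10, since it did not pass the filter in the others. Of the 14 called members, 9 were called under all of them, 4 lower (DDIT4, PIK3R1, AKT2 and PIK3C2A) and 5 higher (AKT1, EIF4EBP1, PIK3CD, RPS6KB2 and RRAGD), and 5 lost the call under at least 1; none changed sign. Of the members not called, 7 were called under at least 1 alternative. The number called lower was 5 under library totals and 5 to 8 when each replicate was left out, and the number called higher was 11 under library totals. Over all tested genes, 2418 were lower and 3817 higher under library totals, and 2723 to 3066 were lower when each replicate was left out. The median log2FC of the members was 0.014 under library totals and -0.0343 to -0.00593 when each replicate was left out, and over all tested genes it was 0.051 under library totals. Library totals turned the sign of 9 members that were not called: PIK3R3 (0.0186), PIK3R4 (0.00563), IRS1 (0.00492), IRS2 (0.0237), TSC2 (0.0359), RHEB (0.00971), RPTOR (0.0117), SGK1 (0.0138) and GSK3B (0.00977). Leaving out a replicate did so for PIK3R3 (-0.101 to 0.0617), IRS2 (-0.0677 to 0.0126), TSC2 (-0.0276 to 0.00844), SGK1 (-0.0775 to 0.00292), FOXO3 (-0.0352 to 0.0698), GSK3A (-0.0071 to 0.0431) and GSK3B (-0.0836 to 0.00944). Where an alternative changed a value, the cause was not tested.

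The labels do not say whether the replicate numbers pair the samples, and no sign of pairing was seen. Deviations of same-numbered replicates had correlations of 0.0388, 0.0653 and -0.0784, against -0.121 to 0.0903 for replicates with different numbers. With the replicate block, 9 members were lower and 7 higher, and over all tested genes 3335 were lower and 3140 higher. Counts in the gene lists moved by up to 2 genes, except that 11 of the other AKT and mTOR regulators were higher under library totals. With 3 replicates per group and 1 hairpin, depth did not allow a statement on DEPTOR, and DDIT4L and PIK3C2B have wide intervals.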
